A study of Mus musculus with 15 samples.

Results

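Claudins and cadherins are the adhesion proteins of tight junctions and adherens junctions, and their transcripts were compared here across 5 tissues of the mouse aorta-gonad-mesonephros (AGM) region, the embryonic site where haematopoietic stem cells (HSCs) mature. The members were every gene of the deposited table whose name is Cldn followed by a number, with or without the letter a, b or c, or Cdh followed by a number. Cldn8, Cdh16 and Cdh5, which match the same pattern, were left out. This gave 42 members, 20 claudins and 22 cadherins, of 28876 genes in the table. All groups were C57BL/6 embryo tissue with no mutation or treatment named in the labels, and RNA was measured by RNA-seq in 15 libraries, 3 in each group. E9 AoD and E9 AoV were the dorsal and ventral parts of the E9.5 aortic region. E10 AoD and E10 AoV were the corresponding parts at E10.5, and E10 UGR was the urogenital ridges, which were separated only at E10.5. A change between stages in AoV or AoD can therefore not be told apart from this difference in dissection. Each library came from tissue pooled from between 15 and 34 embryos, so that a value is a mean over many cell types and embryos. The labels do not say which pools shared embryos, and p-values measure only the spread between these pools.

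Claudins span the membrane several times and seal the space between neighbouring epithelial or endothelial cells; some members tighten this barrier, whereas others form pores for ions or water. Classical cadherins bind the same or a related cadherin on the next cell through calcium-dependent ectodomains and anchor the actin cytoskeleton through beta-catenin, p120-catenin and alpha-catenin. Type I cadherins, such as E-cadherin and N-cadherin, mark epithelial, neural and mesenchymal tissues, whereas type II cadherins are known mainly from the nervous system and from mesenchyme. Loss of E-cadherin and of epithelial claudins accompanies the change of epithelial into mesenchymal cells, and endothelial cells use their own claudin, Cldn5.

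Values are RPM as deposited, reads scaled to the total of each library, and levels of different genes are set beside each other only per kilobase (kb) of annotated exon. The depth worked out from the smallest steps of the values was 33.75 to 48.64 megareads per library, so that 3 reads, the limit that a count of 0 allows, correspond to 0.0617 to 0.0889 RPM. Replicate libraries correlated across tested genes with Pearson's r of 0.993 to 0.9967. Marker lists separated the tissues: summed nephric duct and mesonephros markers, 8 genes, were at 393 to 403 RPM in E10 UGR and at most 127 RPM in the other 12 libraries. Summed gut endoderm and liver markers, 12 genes, were at 517 to 772 RPM in E9 AoV and at most 52.8 RPM elsewhere. Summed endothelial markers, 10 genes, were lowest in E9 AoD, at 319 to 412 RPM, and at 472 to 657 RPM in the other groups. In these 3 lists no gene was at 0 in every library of a group, except Spink3 of the gut list in E10 AoD. In such mixed tissue, fewer cells of a type and less RNA per cell cannot be told apart.

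Of the 42 members, 36 reached 0.5 RPM in at least 1 library and entered the test, 15 claudins and 21 cadherins. The other 6, Cdh17, Cldn14, Cldn16, Cldn17, Cldn18 and Cldn22, stayed below 0.5 RPM in every library. Cdh17, the liver-intestine cadherin, was highest in E9 AoV at 0.16, 0.394 and 0.214 RPM. Cldn18, the claudin of stomach and lung, was also highest there, at 0.16, 0.0928 and 0.19 RPM. Cldn22 shared 44.8% of its 50-base exon windows with Cldn24, so reads of these 2 genes may have been divided between them.

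**Figure D1:**
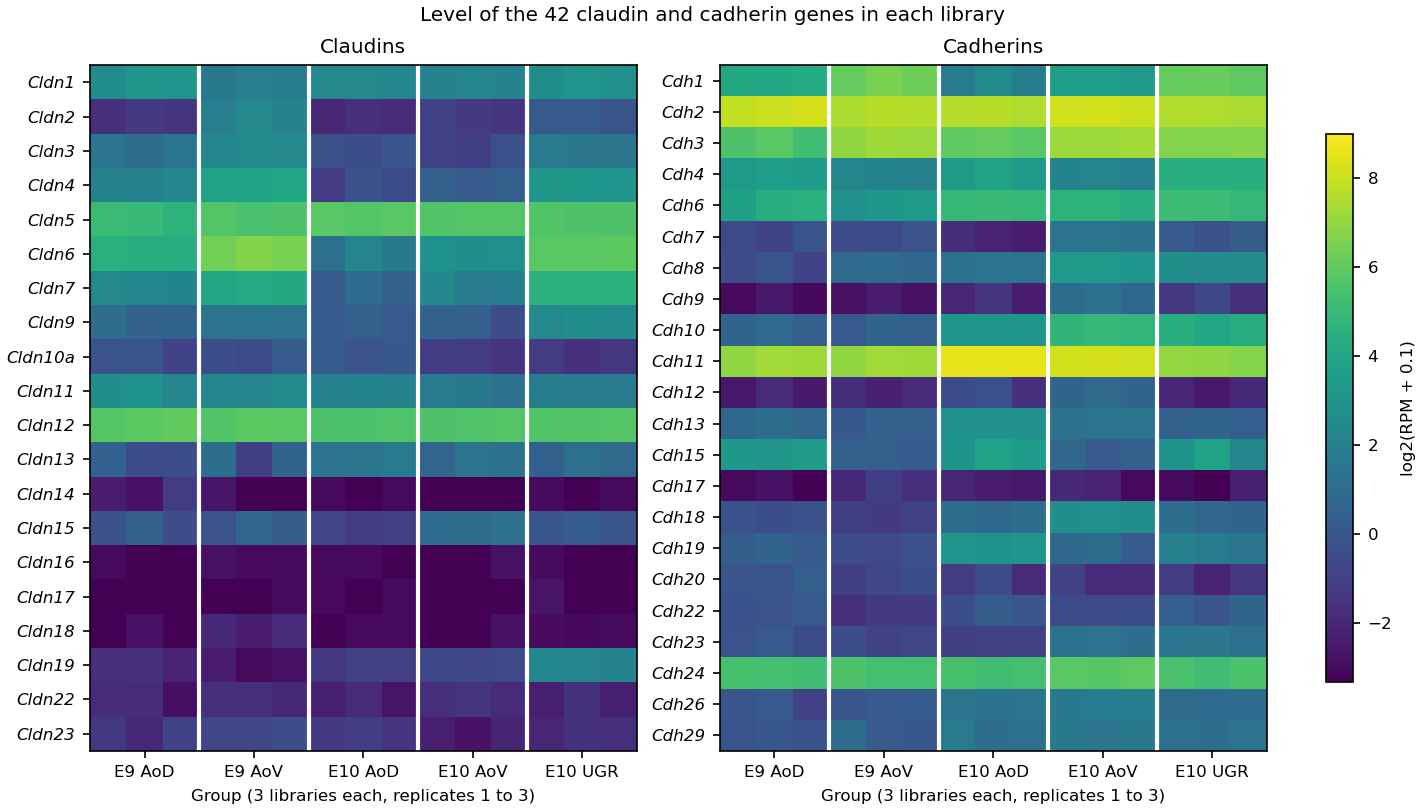
Level of each of the 42 members in each of the 15 libraries; columns are libraries in groups of 3, rows are genes and the colour is log2(RPM + 0.1). Cdh2 and Cdh11 are bright in every group, whereas Cldn6 and Cdh1 are brightest in E9 AoV and E10 UGR.

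Per kb of exon, Cdh11 was the most abundant member in E9 AoD, E10 AoD and E10 AoV, at 34.2, 89.9 and 67.1 RPM per kb, whereas Cldn6 was first in E9 AoV and E10 UGR, at 61.0 and 38.9 RPM per kb. Summed over the 20 claudins, E9 AoV had 139.5 ± 4.79 RPM per kb (SD, n = 3) and E10 UGR had 116.5 ± 0.592, whereas E9 AoD had 66.7 ± 3.26, E10 AoD had 63.1 ± 1.33 and E10 AoV had 64.3 ± 0.576. Claudin RNA was thus high in E9 AoV and E10 UGR, with no library of the other groups reaching theirs. Summed over the 22 cadherins, E10 AoV had 190.4 ± 2.10 RPM per kb and E10 AoD had 174.5 ± 5.42, against 112.3 ± 8.52 for E9 AoD, 134.0 ± 9.54 for E9 AoV and 139.0 ± 5.28 for E10 UGR, and the E10 aortic groups did not overlap the E9 groups.

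A member was called when the adjusted p of limma's moderated test, over all 18553 tested genes, was under 0.05 and the log2 fold change of RPM + 0.1 was at least 1 in size. Between stages in the ventral tissue, E10 AoV against E9 AoV, 21 of 36 tested members were called, 13 higher and 8 lower at E10.5, where 11% of all tested genes were called, 6.04% higher and 4.99% lower. In the dorsal tissue, E10 AoD against E9 AoD, 17 members were called, 10 higher and 7 lower, against 12.6% of all tested genes (8.6% and 4%). Dorsal and ventral tissue at E10.5 differed in 18 members, with E10 AoV higher in 12 and lower in 6, against 10.1% of all tested genes (5.81% and 4.29%). At E9.5 the same comparison called 13 members, with E9 AoV higher in 8 and lower in 5, against 11.8% (8.32% and 3.47%), and after quantile normalization the split was 7 higher and 9 lower. Against E10 UGR, E10 AoV differed in 17 members, 6 higher and 11 lower, against 7.57% (3.84% and 3.73%), and E10 AoD in 18, 5 higher and 13 lower, against 11.3% (4.76% and 6.56%). The change between stages itself differed between AoV and AoD in 12 members, 7 above and 5 below 0, against 11% (4.12% and 6.89%). These comparisons share libraries and are not independent of each other. In all, 31 tested members were called in at least 1 of the 6 comparisons, 12 of 15 claudins and 19 of 21 cadherins. The 5 never called were Cdh2, Cdh24, Cldn5, Cldn11 and Cldn12, which were all well above 0.5 RPM in every library. The share of all tested genes called in at least 1 of the 6 comparisons was not counted. It is at least 12.6%, the share of a single comparison, so 31 of 36 cannot be set against it.

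Between stages, claudin calls were mostly lower and cadherin calls mostly higher at E10.5. From E9 AoV to E10 AoV, 7 tested claudins were called lower and 1 higher, with a median log2 fold change of -0.999 over the 15, whereas 12 cadherins were called higher and 1 lower, with a median of 1.12 over the 21. Over all tested genes the median was -0.0016. From E9 AoD to E10 AoD, 4 claudins were called lower and 1 higher, and 9 cadherins higher and 3 lower, with medians of -0.46 and 0.76. By class, 8 of 12 type II cadherins and 4 of 4 tested cadherins outside the classical types rose from E9 AoV to E10 AoV, against 5 of 9 tested barrier claudins that fell. Called lower at E10.5 in both parts of the aorta were 5 members, Cdh1, Cldn3, Cldn4, Cldn6 and Cldn7. Called higher in both were 8, Cdh8, Cdh10, Cdh12, Cdh13, Cdh18, Cdh19, Cdh26 and Cdh29. With a pseudocount of 1 RPM, 9 members were called higher and 6 lower in AoV, and 7 higher and 4 lower in AoD. Neither joint set was therefore kept in full with that pseudocount. Joint calls were not counted over all tested genes. From the single comparisons, at most 4% can be lower in both parts and at most 6.04% higher in both.

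**Figure D2:**
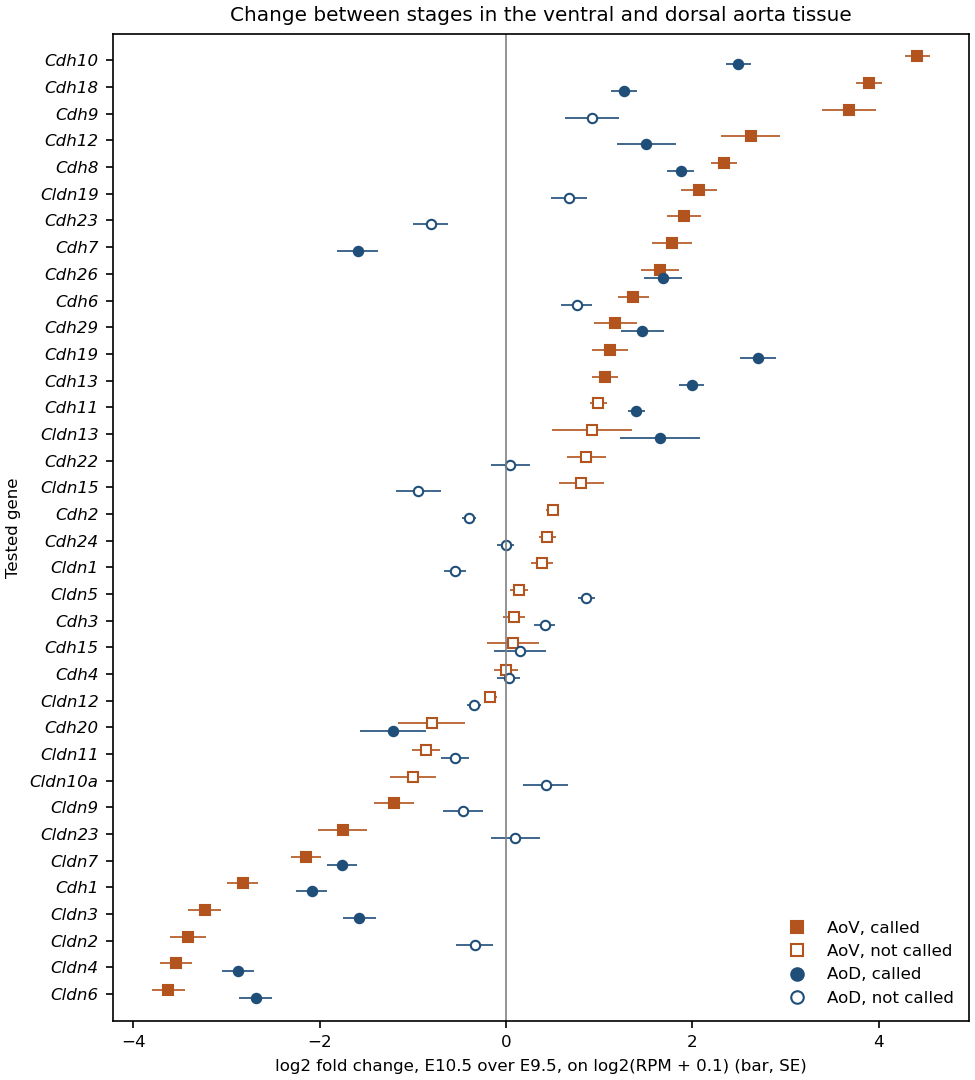
Log2 fold change from E9.5 to E10.5 of the 36 tested members in AoV (squares) and AoD (circles), with SE; filled symbols are called. Cdh10 heads the plot at 4.41 in AoV, and Cldn6, Cldn4 and Cdh1 lie below -2 in both parts.

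Cdh1, which encodes E-cadherin, the cadherin of nearly all epithelia, was at 67.4, 90.4 and 78.7 RPM in E9 AoV, and E10 UGR was close to it at 68.2, 70.5 and 62.1 RPM. The other groups were lower, E9 AoD at 17.9, 16.7 and 18.8 RPM, E10 AoV at 11.4, 11.4 and 10.1 RPM, and E10 AoD at 3.25, 5.9 and 3.62 RPM. The last 3 groups overlapped neither each other nor the 2 high groups. The order of the group means was E9 AoV, E10 UGR, E9 AoD, E10 AoV and E10 AoD, and E9 AoV and E10 UGR, neighbours in that order, overlapped in range. Between stages Cdh1 fell by 2.83 ± 0.16 (SE) on the log2 scale in AoV (adjusted p = 5.81e-09) and dropped by 2.09 ± 0.16 in AoD (adjusted p = 7.57e-08). It was higher in AoV than in AoD at both stages, with log2 fold changes of 2.13 at E9.5 and 1.39 at E10.5.

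Cldn6, an early embryonic epithelial claudin, and Cldn4, a barrier claudin of many epithelia, had the same order of group means as Cdh1, an order that 0.954% of all tested genes shared. Cldn6 reached 84, 101 and 90.8 RPM in E9 AoV, followed by E10 UGR at 57.5, 58.2 and 60.1 RPM. E9 AoD had 22.7, 20.4 and 20.7 RPM, E10 AoV had 8.01, 6.95 and 7.13 RPM, and E10 AoD had 2.27, 4.79 and 3.05 RPM. No range of these 5 groups overlapped another. Cldn6 had the largest fall of log2(RPM + 0.1) of the members from E9 AoV to E10 AoV, by 3.62 ± 0.18 (adjusted p = 1.21e-09), whereas by the means of RPM it was 12.5-fold lower, close to Cldn4 at 12.6-fold and Cldn2 at 13.5-fold. It also had the largest difference of the members between E10 AoD and E10 UGR, at a log2 fold change of -4.15 ± 0.18 (adjusted p = 2.03e-10). Between E10 AoV and E10 AoD its log2 fold change was 1.17 ± 0.18, and without E10 AoD replicate 1 it was 0.92, under the fold threshold.

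Cldn4 was at 13.4, 14.8 and 16.2 RPM in E9 AoV, with E10 UGR next at 9.03, 9.45 and 8.69 RPM. It had 4.45, 4.16 and 5.3 RPM in E9 AoD, while E10 AoV had 1.25, 1.07 and 1.21 RPM and E10 AoD had 0.359, 0.728 and 0.592 RPM. Its groups were as separate as those of Cldn6. It fell by 3.54 ± 0.17 in AoV (adjusted p = 1.12e-09) and dropped by 2.88 ± 0.17 in AoD (adjusted p = 5.37e-09), whereas the difference of 0.99 between E10 AoV and E10 AoD was just under the fold threshold of 1.

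Cldn7, a claudin of simple epithelia, was highest in E10 UGR, at 22.7, 22.2 and 22.3 RPM, above all other libraries. E9 AoV followed at 16.7, 18.2 and 18 RPM, then E9 AoD at 5.48, 4.92 and 4.64 RPM, E10 AoV at 5.06, 3.38 and 3.49 RPM, and E10 AoD at 1.1, 1.86 and 1.35 RPM. Only E9 AoD and E10 AoV overlapped. Cldn7 fell by 2.14 ± 0.16 in AoV and dropped by 1.76 ± 0.16 in AoD (adjusted p = 7.96e-08 and 3.81e-07), and the log2 fold change of E10 AoD against E10 UGR was -3.90 ± 0.16. Replicate 2 was the highest E10 AoD library for Cdh1, Cldn4, Cldn6 and Cldn7.

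Cldn3, the neighbour of Cldn4, was at 5.16, 5.9 and 5.4 RPM in E9 AoV, above all other libraries, while E10 UGR had 3.21, 2.82 and 2.9 RPM. E9 AoD was at 2.56, 2.01 and 2.74 RPM, E10 AoD at 0.743, 0.652 and 0.851 RPM, and E10 AoV at 0.441, 0.383 and 0.699 RPM. Unlike for Cldn4, the E10 AoV and E10 AoD libraries of Cldn3 overlapped, and their log2 fold change was -0.51. Cldn3 and Cldn4 lie on chromosome 5 (NCBIM37) at 135462084-135463342 and 135420996-135422804, 39279 bases apart and transcribed away from each other, with Cldn13 29599 bases beyond Cldn4. Cldn3 fell by 3.23 ± 0.17 in AoV and dropped by 1.57 ± 0.17 in AoD. The difference between these changes, the interaction of stage and position, was -1.66 (adjusted p = 0.000146).

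Cldn9, the neighbour of Cldn6, was at 5.44, 6.73 and 6.1 RPM in E10 UGR, above all other libraries, with E9 AoV next at 2.49, 2.63 and 2.5 RPM. E9 AoD had 2.02, 1.35 and 1.44 RPM, E10 AoD had 1.11, 1.28 and 0.994 RPM, and E10 AoV had 1.36, 1.26 and 0.652 RPM. These last 2 groups overlapped, and E10 AoV reached into the range of E9 AoD. The genes lie end to end on chromosome 17 (NCBIM37), Cldn6 at 23816332-23819413 on the plus strand and Cldn9 at 23819552-23820985 on the minus strand, with 138 bases between their 3' ends, and the counting is not stated to use strand. Cldn9 differed from Cldn6 in which group was highest, E10 UGR for Cldn9 and E9 AoV for Cldn6. Cldn9 fell by 1.21 ± 0.21 from E9 AoV to E10 AoV (adjusted p = 0.000331), but by 0.91 without E10 AoV replicate 3, and its log2 fold change was -2.43 for E10 AoV and -2.33 for E10 AoD against E10 UGR.

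**Figure D3:**
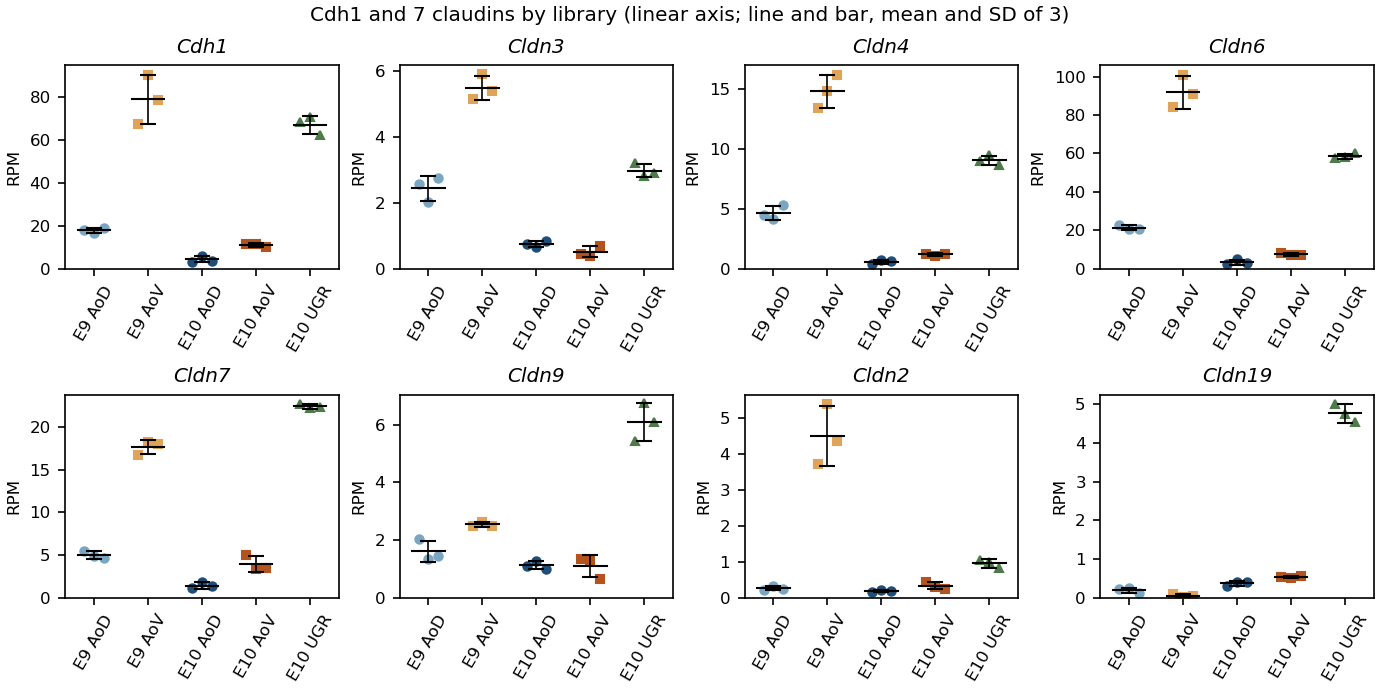
RPM of Cdh1 and 7 claudins in each library on linear axes from 0; points are libraries, lines and bars the mean and SD of 3. Cdh1, Cldn4 and Cldn6 are high in E9 AoV and E10 UGR and low in both E10 aortic groups, whereas Cldn2 is high in E9 AoV and Cldn19 in E10 UGR.

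The 250 bases before the transcript start of the 4 claudins called lower at E10.5 in both parts of the aorta are shown because these genes moved together with Cdh1, and the E2-box is the element through which Snail and Zeb factors repress E-cadherin. Sequences are RefSeq's on GRCm38.p6, 5' to 3' on the gene's strand, with E2-boxes (CAGGTG, or CACCTG for the other strand) in capitals.
Cldn6, chr17:23679115-23679364, plus strand: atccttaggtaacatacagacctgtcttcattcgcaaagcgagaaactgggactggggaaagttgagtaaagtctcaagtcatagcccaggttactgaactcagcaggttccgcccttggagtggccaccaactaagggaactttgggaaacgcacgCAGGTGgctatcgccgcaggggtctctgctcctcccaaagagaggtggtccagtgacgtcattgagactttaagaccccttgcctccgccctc
Cldn4, chr5:134946935-134947184, minus strand: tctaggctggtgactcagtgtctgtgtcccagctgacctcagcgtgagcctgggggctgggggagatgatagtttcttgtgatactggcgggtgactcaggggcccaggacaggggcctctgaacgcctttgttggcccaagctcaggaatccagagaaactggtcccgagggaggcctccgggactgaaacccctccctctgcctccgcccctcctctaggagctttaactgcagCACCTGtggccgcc
Cldn3, chr5:134985964-134986213, plus strand: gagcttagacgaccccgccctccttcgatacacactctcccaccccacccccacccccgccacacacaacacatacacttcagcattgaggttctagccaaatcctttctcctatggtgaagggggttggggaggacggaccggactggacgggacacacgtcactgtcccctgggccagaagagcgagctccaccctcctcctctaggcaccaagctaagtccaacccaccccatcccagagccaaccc
Cldn7, chr11:69964529-69964778, plus strand: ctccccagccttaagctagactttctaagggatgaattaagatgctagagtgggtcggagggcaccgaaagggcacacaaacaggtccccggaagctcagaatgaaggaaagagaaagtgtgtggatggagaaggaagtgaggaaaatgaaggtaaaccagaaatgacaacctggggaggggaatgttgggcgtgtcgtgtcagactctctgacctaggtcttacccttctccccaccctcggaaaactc
In these 4 windows Cldn6 and Cldn4 each held a single E2-box, and the windows of Cldn3 and Cldn7 held none. A second RefSeq start of Cldn7, downstream of the first, had 2 E2-boxes in its own window. Among all 32851 RefSeq start sites 17.2% held an E2-box in the same stretch, and of the 29 members with an entry 5 genes did, Cdh7, Cldn4, Cldn6, Cldn7 and Cldn14, against 19.4% of all genes. The grainyhead core AACCGG, or CCGGTT on the other strand, was in 3 of 29 members and in 6.4% of all genes. A GC box, GGGCGG with CCGCCC as its other strand, was in 14 of 29 members and in 35.4% of all genes. These 3 motifs do not overlap in letters. A match is a string of letters, and binding was not measured.

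Genes of other epithelial functions were read beside these members. Of 18 epithelial regulators and markers, 16 fell from E9 AoV to E10 AoV, with a median log2 fold change of -2.5 over the list. The largest falls were those of Cdx2 (-4.90), a transcription factor, and Spint1 (-3.48), an inhibitor of epithelial proteases. In AoD 12 of 18 fell, led by Cdx2 (-5.03) and Krt7 (-2.97), a keratin of simple epithelia. At E9.5 16 of 18 were higher in AoV than in AoD, led by the simple-epithelial keratins Krt8 (3.28) and Krt18 (2.79). At E10.5 11 of 18 were higher in AoV than in AoD, led by Cdx2 (1.92) and Krt18 (1.85). Against E10 UGR, 11 were lower and 2 higher in E10 AoV, with Spint1 (-2.82) and Grhl2 (-2.75), an epithelial transcription factor, furthest down and Cdx2 (2.51) and the keratin Krt19 (1.01) up, and 15 were lower in E10 AoD, led by Spint1 (-4.11) and Esrp1 (-3.99), an epithelial splicing factor. Summed over the 18, E9 AoV had 796 to 865 RPM, E10 UGR had 329 to 340 RPM, E10 AoV had 185 to 217 RPM, E9 AoD had 140 to 177 RPM and E10 AoD had 84.9 to 92.3 RPM. The gut endoderm and liver list was high in E9 AoV and the nephric duct and mesonephros list in E10 UGR, with the values given above, and their part in the levels of Cdh1 and the claudins was not tested.

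Of 7 factors known to repress E-cadherin, 4, Snai1, Snai2, Zeb1 and Tcf4, were called in none of the 6 comparisons. Zeb2 rose by a log2 fold change of 1.67 from E9 AoV to E10 AoV, from 50.3 to 62.1 RPM up to 171 to 191 RPM, and was higher by 1.13 in E10 AoV than in E10 UGR. Twist2 was higher in E10 AoD than in E9 AoD (1.48) and E10 UGR (1.38), and in E9 AoV than in E9 AoD (1.02). Twist1 was lower in E10 AoV than in E10 AoD (-1.21), as was Twist2 (-1.20), and Twist1 was higher in E10 AoD than in E10 UGR (1.66).

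Cldn2, a cation and water pore of leaky epithelia, was at 3.74, 5.4 and 4.37 RPM in E9 AoV, with E10 UGR next at 1.04, 1.01 and 0.817 RPM. The low groups were E9 AoD at 0.221, 0.322 and 0.257 RPM, E10 AoD at 0.154, 0.226 and 0.189 RPM, and E10 AoV at 0.441, 0.307 and 0.256 RPM. The E9 AoV libraries lay above all others, and the 3 low groups lay close together. Cldn2 had the largest difference of the members between E9 AoV and E9 AoD, 3.64 ± 0.19 on the log2 scale (adjusted p = 2.79e-09), and fell by 3.41 ± 0.19 from E9 AoV to E10 AoV (adjusted p = 5.19e-09). The change between stages in AoD was not called, and the interaction was -3.07 (adjusted p = 1.47e-06).

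Cldn19, a kidney claudin that works with Cldn16 in the thick ascending limb, was at 5, 4.75 and 4.53 RPM in E10 UGR and at most 0.557 RPM in the other 12 libraries. It was at 0.0912, 0.0232 and 0.0475 RPM in E9 AoV, within a few reads of 0, whereas E10 AoV had 0.544, 0.509 and 0.557 RPM. Its log2 fold change was -2.93 ± 0.19 for E10 AoV and -3.38 ± 0.19 for E10 AoD against E10 UGR (adjusted p = 4.12e-08 and 4e-09), and 2.07 ± 0.19 from E9 AoV to E10 AoV. Cldn16 itself was not tested, at 0.0466 RPM or less everywhere.

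Cldn15, an intestinal cation pore, was highest in E10 AoV, at 1.87, 1.97 and 2.31 RPM, above all other libraries, and lowest in E10 AoD, at 0.487, 0.351 and 0.402 RPM. The other 9 libraries lay between 0.684 and 1.53 RPM. Its log2 fold change between E10 AoV and E10 AoD was 2.07 ± 0.24 (adjusted p = 7.13e-06). Against E10 UGR it was 1.05 for E10 AoV and -1.02 for E10 AoD, both close to the fold threshold: the first was 0.96 without E10 AoV replicate 3 and 0.98 without E10 UGR replicate 3, and the second -0.93 without E10 AoD replicate 2, -0.92 without E10 UGR replicate 2, -0.90 after quantile normalization and -0.98 after median-ratio scaling.

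Cldn1, the main barrier claudin of the epidermis, was at 6.54, 9.03 and 8.42 RPM in E9 AoD and 2.99, 3.78 and 3.54 RPM in E9 AoV, with a log2 fold change of -1.19 ± 0.12 for E9 AoV against E9 AoD (adjusted p = 1.19e-06). It was the only claudin called lower in E9 AoV than in E9 AoD. Cldn10a, whose identifier covers all isoforms of the Cldn10 gene, was at 1.1, 0.778 and 0.947 RPM in E10 AoD and 0.337, 0.358 and 0.279 RPM in E10 AoV, with E10 UGR at 0.356, 0.226 and 0.282 RPM. It was lower in E10 AoV than in E10 AoD by a log2 fold change of -1.29 ± 0.24 (adjusted p = 0.000655) and higher in E10 AoD than in E10 UGR by 1.43 ± 0.24. Cldn23 was at 0.524, 0.51 and 0.642 RPM in E9 AoV, above all other libraries, and at 0.104, 0.0512 and 0.14 RPM in E10 AoV. It fell by 1.75 ± 0.26 between them (adjusted p = 7.12e-05). For E10 AoV against E10 AoD its log2 fold change was -1.08, and it was -0.97 without E10 AoD replicate 2 and -0.90 without E10 AoV replicate 2. Cldn13 was at 2.51, 2.81 and 3.12 RPM in E10 AoD and 1.38, 0.618 and 0.641 RPM in E9 AoD, a rise by 1.65 ± 0.43 on the log2 scale (adjusted p = 0.00424). It spread widely within E9 AoV, at 2.07, 0.394 and 1.4 RPM. In the same order, the 8 erythroid markers summed to 12790, 2723 and 7727 RPM in the E9 AoV libraries. They summed to 3495 to 7900 RPM in E9 AoD and 8172 to 10900 RPM in E10 AoD. Their part in the Cldn13 level was not tested.

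Cldn5, the claudin of endothelial tight junctions, was called in no comparison. It was at 34.1, 32.9 and 25.2 RPM in E9 AoD, below all other libraries, and between 43.8 and 57.4 RPM in the other 12. The log2 fold change from E9 AoD to E10 AoD was 0.86 (95% interval 0.66 to 1.06), and the summed endothelial markers were lowest in the same group, and their part in the level of Cldn5 was not tested. Cldn12, which differs from other claudins in lacking their usual carboxy-terminal motif, lay between 45.6 and 65.4 RPM, and Cldn11, the claudin of myelin and Sertoli cells, lay between 2.42 and 7.68 RPM.

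Tight junction partners, 24 scaffold, polarity and membrane genes, are given beside the members. From E9 AoV to E10 AoV 5 fell and 1 rose, led by Crb3 (-2.43), an apical polarity protein, Marveld2 (-2.18), which encodes tricellulin, and Jam2 (1.49), an adhesion molecule of endothelium. In AoD 4 fell between stages, led by Crb3 (-2.07) and Tjp3 (-1.72), which encodes the scaffold ZO-3. At E9.5 9 were higher and 1 lower in AoV than in AoD, led by Ocln (2.53), which encodes occludin, Marveld3 (2.48) and Jam2 (-2.46). At E10.5 7 were higher and 1 lower, led by Pard6b (2.02), F11r (1.93) and Jam2 (-1.10). Against E10 UGR 4 were lower in E10 AoV, led by Crb3 (-3.03) and Marveld2 (-2.17), and 10 lower and 1 higher in E10 AoD, led by Crb3 (-4.47), Tjp3 (-2.65) and Jam2 (1.42). The scaffold Tjp1, which encodes ZO-1, was called in none of the 6 comparisons.

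Cdh2, which encodes N-cadherin, the cadherin of neural tissue and much mesenchyme, changed little where Cdh1 changed much. E9 AoD had 234, 260 and 291 RPM and E9 AoV had 177, 204 and 197 RPM, and at the later stage E10 AoD had 201, 204 and 188 RPM, E10 AoV had 273, 282 and 261 RPM and E10 UGR had 192, 182 and 174 RPM. No log2 fold change of Cdh2 reached 1 in size: from E9 AoV to E10 AoV it was 0.50 (95% interval 0.34 to 0.65) and in AoD it was -0.40 (-0.56 to -0.24). The level of Cdh1 divided by that of Cdh2, both in RPM per kb, was 0.672 to 0.781 in E9 AoV and 0.626 to 0.683 in E10 UGR, but 0.113 to 0.135 in E9 AoD, 0.0682 to 0.0736 in E10 AoV and 0.0285 to 0.051 in E10 AoD. No group overlapped another in this quotient, except that E9 AoV and E10 UGR did.

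Cdh3, which encodes P-cadherin, lies 46442 bases before Cdh1 on chromosome 8 (NCBIM37; Cdh3 at 109034791-109080808, Cdh1 at 109127251-109194146, both on the plus strand). The ventral groups were high, E9 AoV at 126, 150 and 143 RPM and E10 AoV at 144, 143 and 156 RPM, with E10 UGR at 105, 106 and 107 RPM. The dorsal groups were low, E10 AoD at 64.3, 67 and 56.9 RPM and E9 AoD at 47.3, 58.3 and 37.6 RPM. It followed position rather than stage: its log2 fold change for AoV against AoD was 1.57 ± 0.12 at E9.5 (adjusted p = 5.88e-08) and 1.24 ± 0.12 at E10.5 (adjusted p = 8.09e-07), whereas neither change between stages was called. In RPM per kb, Cdh3 was 1.72 to 2.14 times Cdh1 in E9 AoV and E10 UGR, and 13 to 22.7 times Cdh1 in the E10 aortic groups.

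Cdh4, which encodes R-cadherin of retina, brain and kidney, was at 21.2, 20.8 and 21.5 RPM in E10 UGR, above all other libraries. E9 AoD had 10.2, 11.8 and 11 RPM, E10 AoD had 9.61 to 13.9 RPM, and levels were between 3.84 and 4.83 RPM in both AoV groups. For AoV against AoD its log2 fold change was -1.29 ± 0.12 at E9.5 and -1.32 ± 0.12 at E10.5 (adjusted p = 8.07e-07 and 7.88e-07), and for E10 AoV against E10 UGR it was -2.23 ± 0.12.

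Cdh15, which encodes M-cadherin of skeletal muscle precursors, had the largest negative difference of the members between AoV and AoD at both stages. E9 AoD had 9.44, 8.49 and 10.8 RPM, E10 AoD had 7.97, 13.9 and 10.6 RPM and E10 UGR had 7.88, 13.5 and 4.98 RPM. By contrast, E9 AoV had 1.39, 1.23 and 1.09 RPM and E10 AoV had 1.58, 1.05 and 1.33 RPM. Its log2 fold change for AoV against AoD was -2.86 ± 0.28 at E9.5 (adjusted p = 9.91e-07) and -2.92 ± 0.28 at E10.5 (adjusted p = 9.59e-07), and -2.55 for E10 AoV against E10 UGR. The 9 somite and myotome markers summed to 465 to 474 RPM in E9 AoD, 304 to 337 RPM in E10 AoD and 182 to 255 RPM in E10 UGR, against 103 to 141 RPM in the AoV groups. Within E10 UGR, replicate 2 was highest and replicate 3 lowest for both Cdh15 and this list. The part of muscle precursors in the Cdh15 level was not tested.

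**Figure D4:**
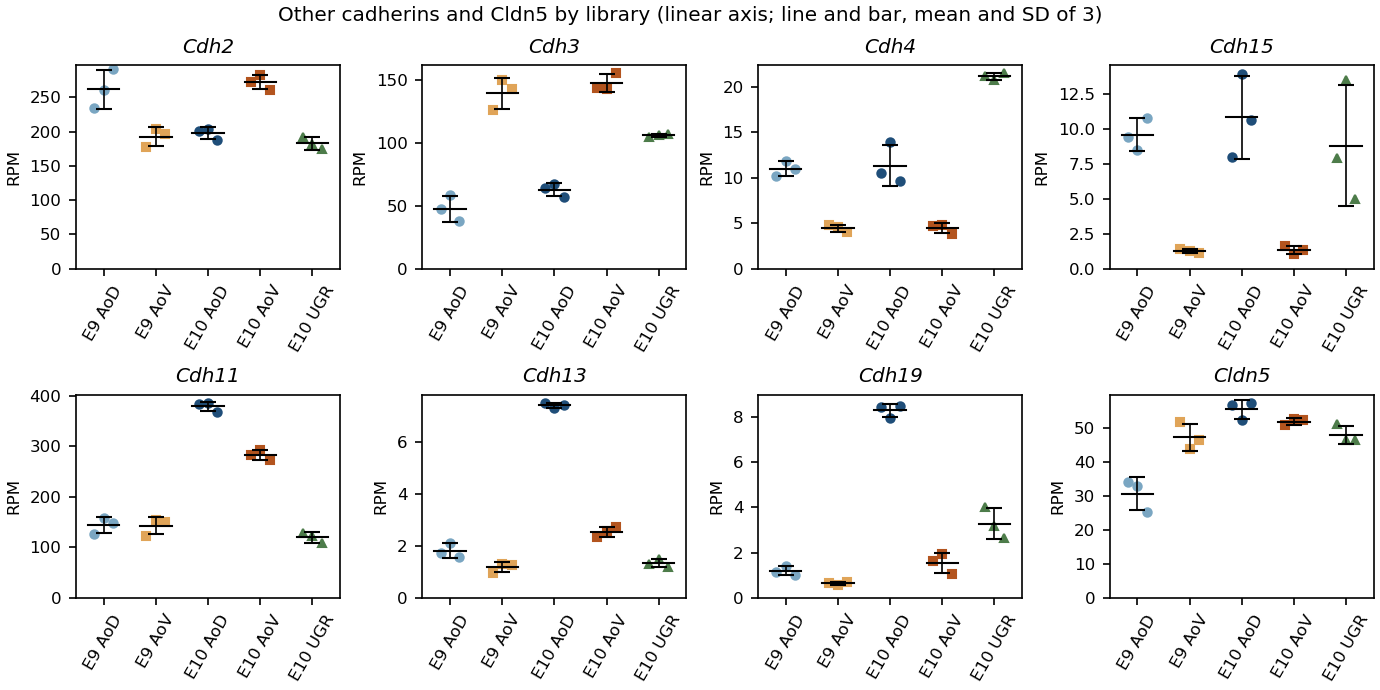
RPM of 7 other cadherins and Cldn5 in each library on linear axes from 0; points are libraries, lines and bars the mean and SD of 3. Cdh15 is low in both AoV groups, Cdh3 is high in both, and Cdh11, Cdh13 and Cdh19 are highest in E10 AoD.

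On the log2(RPM + 0.1) scale, the 5 largest rises of the members from E9 AoV to E10 AoV were those of type II cadherins, Cdh10, Cdh18, Cdh9, Cdh12 and Cdh8. This order depends on the pseudocount: by the means of RPM, Cldn19, near 0 in E9 AoV, rose 9.94-fold, against 9.14-fold for Cdh12 and 5.29-fold for Cdh8. Of 9 tested members with all 3 E10 AoV libraries above the other 12, 7 were type II, Cdh7, Cdh8, Cdh9, Cdh10, Cdh12, Cdh18 and Cdh24, and the others were Cdh26 and Cldn15; this pattern held for 6.69% of all tested genes. For 7 members E10 AoV was called higher against E9 AoV and also against E10 AoD, Cdh7, Cdh8, Cdh9, Cdh10, Cdh12, Cdh18 and Cdh23, and for 4 of them, Cdh7, Cdh9, Cdh12 and Cdh18, against E10 UGR too. These joint calls were not counted over all tested genes. From the single comparisons, at most 5.81% can be higher against E9 AoV and E10 AoD, and at most 3.84% against E10 UGR too. By the count of members with all 3 libraries above the other 12, E9 AoV had 5 (5.66% of all tested genes) and E10 UGR had 4 (7.2%). By the same count, E10 AoD had 3 (6.04%) and E9 AoD had 1, Cdh20 (12.8%).

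Cdh10, a type II cadherin of forebrain neurons, was at 27, 30.5 and 27.4 RPM in E10 AoV, with E10 UGR at 20.8, 16.6 and 20 RPM and E10 AoD at 8.81, 8.61 and 8.86 RPM. At E9.5, AoD had 1.45, 1.75 and 1.26 RPM and AoV had 1, 1.48 and 1.26 RPM. The E10 groups did not overlap each other or the E9 groups, which overlapped. Cdh10 had the largest rise of log2(RPM + 0.1) of the members in AoV, by 4.41 ± 0.14 (adjusted p = 3.87e-11), and rose by 2.49 ± 0.14 in AoD (adjusted p = 2.45e-09). By the means of RPM without a pseudocount, its fold in AoV was 22.7, against 31.8 for Cdh9, which was near 0 at E9.5. The interaction was 1.92 (adjusted p = 3.76e-06).

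Cdh18 was at 6.95, 7.21 and 6.57 RPM in E10 AoV and between 1.49 and 2.1 RPM in E10 AoD and E10 UGR. It was at 0.762, 0.672 and 0.748 RPM in E9 AoD and 0.387, 0.325 and 0.404 RPM in E9 AoV. It rose by a log2 fold change of 3.90 ± 0.14 in AoV (adjusted p = 6.66e-11) and 1.26 ± 0.14 in AoD. Cdh9 was at 1.92, 2.3 and 1.7 RPM in E10 AoV, with E10 UGR at 0.296, 0.535 and 0.225 RPM and E10 AoD at 0.154, 0.276 and 0.0947 RPM. In E9 AoV it was at 0.0456, 0.0928 and 0.0475 RPM, on average the RPM of 2.67 reads at the inferred depth, against 79.0 in E10 AoV, and no E9 AoD library was above the RPM of 3 reads. Its fitted log2 fold change in AoV was 3.68 ± 0.29 (adjusted p = 1.05e-07) and depends on the pseudocount. With E9 AoD taken at 3 reads per library, E10 AoD was 2.4-fold higher by the means of RPM, and the change in AoD was not called.

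Cdh12 was at 1.45, 1.82 and 1.4 RPM in E10 AoV, E10 AoD had 0.64, 0.753 and 0.237 RPM, and it was at most 0.205 RPM in the other 9 libraries. It rose by 2.62 ± 0.31 in AoV and 1.51 ± 0.31 in AoD on the log2 scale (adjusted p = 8.45e-06 and 0.00085), and its log2 fold change against E10 UGR was 2.84 for E10 AoV and 1.38 for E10 AoD. Cdh6, which is known as kidney cadherin, differed from these in being high in every E10 group, between 20.7 and 34.9 RPM, with E10 AoV at 25.2, 24.7 and 20.7 RPM. It was at 13.1, 20.7 and 22.7 RPM in E9 AoD and 9.14 ± 1.51 RPM (SD, n = 3) in E9 AoV, and rose by 1.36 ± 0.17 in AoV (adjusted p = 9.9e-06). Its call between E9 AoV and E9 AoD (-1.01) was at the fold threshold, and its log2 fold change was -0.92 without E9 AoD replicate 2, -0.86 without E9 AoD replicate 3 and -0.88 without E9 AoV replicate 1.

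These 5 genes, Cdh6, Cdh9, Cdh10, Cdh12 and Cdh18, lie in that order on chromosome 15 (NCBIM37, 12963955-23404173), a stretch of 10.4 megabases in which 5 of 6 annotated protein-coding genes were these cadherins. All 5 had a called rise from E9 AoV to E10 AoV, which 6.04% of all tested genes shared. The stretch runs from Cdh6 to Cdh18, so these genes themselves set its bounds. Of its 19 annotated genes, 2 others entered the test, AC154435.2 and Acot10, and their changes are not given here. Whether the region rose as a whole was not tested. The 250 bases before the start of Cdh10 and of Cdh18 are shown because these had the 2 largest rises of log2(RPM + 0.1) from E9 AoV to E10 AoV. Neither window held an E2-box, a grainyhead core or a GC box.
Cdh10, chr15:18820079-18820328, plus strand: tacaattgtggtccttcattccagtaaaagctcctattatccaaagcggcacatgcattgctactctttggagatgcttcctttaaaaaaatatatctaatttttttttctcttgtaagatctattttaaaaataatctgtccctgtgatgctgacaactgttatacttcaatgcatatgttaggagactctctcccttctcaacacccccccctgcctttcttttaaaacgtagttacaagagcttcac
Cdh18, chr15:23036213-23036462, plus strand: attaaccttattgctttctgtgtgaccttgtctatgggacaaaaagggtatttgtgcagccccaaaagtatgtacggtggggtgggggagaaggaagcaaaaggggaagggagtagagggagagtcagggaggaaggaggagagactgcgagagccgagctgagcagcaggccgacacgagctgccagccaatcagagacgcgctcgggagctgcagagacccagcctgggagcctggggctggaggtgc
Summed coelomic epithelium and gonad markers, 8 genes, were at 766 to 825 RPM in E10 AoV, 632 to 706 RPM in E10 UGR, 196 to 211 RPM in E9 AoV and 38.6 to 96.8 RPM in the AoD groups. Their part in the levels of Cdh10 was not tested.

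**Figure D5:**
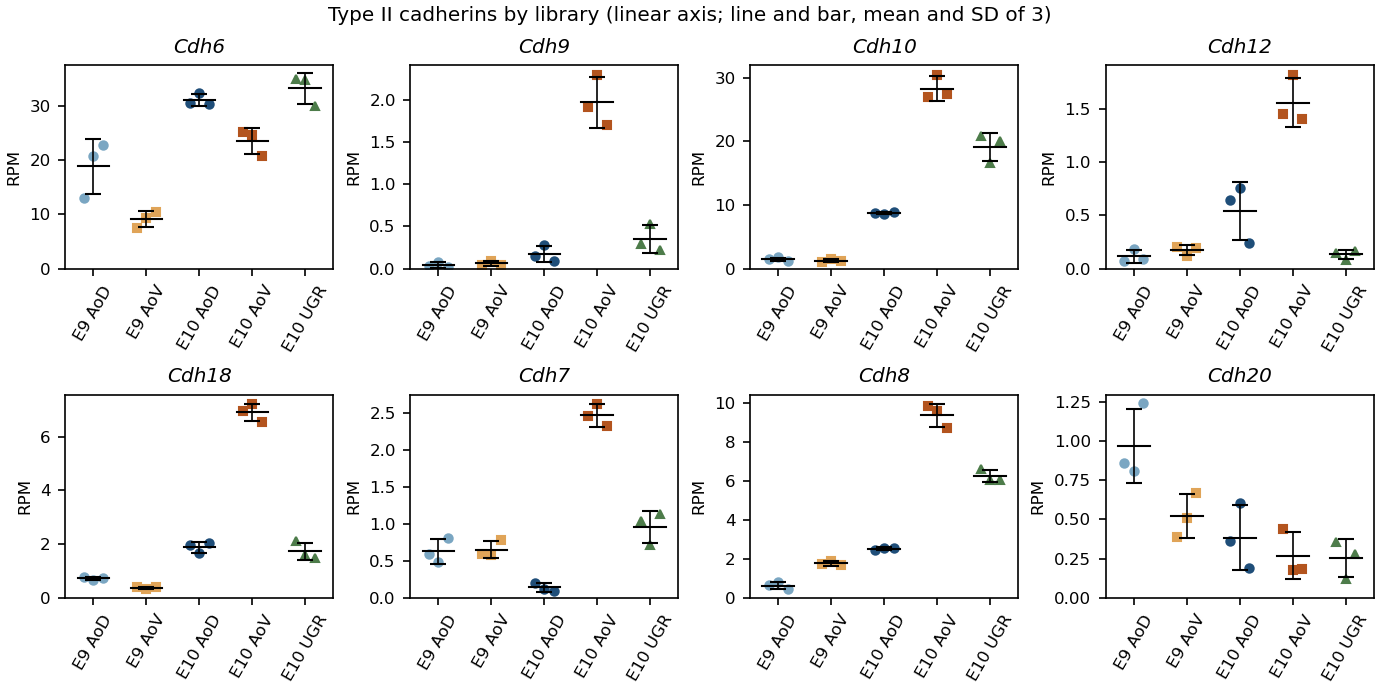
RPM of 8 type II cadherins in each library on linear axes from 0; points are libraries, lines and bars the mean and SD of 3. Cdh7, Cdh8, Cdh9, Cdh10, Cdh12 and Cdh18 are highest in E10 AoV, and Cdh20 is highest in E9 AoD.

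Cdh8, a type II cadherin of cortex and sensory neurons, was at 9.83, 9.59 and 8.71 RPM in E10 AoV, with E10 UGR at 6.61, 6.07 and 6.05 RPM and E10 AoD at 2.43, 2.58 and 2.56 RPM. At E9.5, AoV had 1.76, 1.9 and 1.66 RPM and AoD had 0.639, 0.806 and 0.449 RPM. All 5 groups were separate. It rose by 2.34 ± 0.14 in AoV (adjusted p = 1e-08) and by 1.87 ± 0.14 in AoD (adjusted p = 5.83e-08) on the log2 scale, and was the only type II member called higher in E9 AoV than in E9 AoD, by 1.38.

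Cdh7, Cdh19 and Cdh20 are related type II genes on chromosome 1, with 4986845 bases between Cdh20 and Cdh7 and 749037 between Cdh7 and Cdh19, and each was highest in a different group. Cdh7, known from neural crest and neural tube, was at 2.46, 2.63 and 2.33 RPM in E10 AoV, with E10 UGR at 1.04, 0.72 and 1.13 RPM. E10 AoD was at only 0.205, 0.125 and 0.0947 RPM, against 0.484 to 0.812 RPM in the E9 libraries. On the log2(RPM + 0.1) scale Cdh7 moved in opposite directions between stages, by 1.78 ± 0.22 in AoV and -1.59 ± 0.22 in AoD (adjusted p = 9.01e-06 and 1.74e-05). Its E10 AoD level was on average the RPM of 5.66 reads, so the size of the fall in AoD depends on the pseudocount. Cdh7 had the largest interaction of the members on this scale, 3.38 ± 0.30 (adjusted p = 1.55e-06). Between E10 AoV and E10 AoD it also differed most of the members called higher, by 3.44 ± 0.22. Summed neural crest and sympathoadrenal markers were at 60.2 to 87.6 RPM in E10 AoV and 388 to 443 RPM in E10 AoD. Summed neural tube markers were at 28.7 to 34.5 RPM and 173 to 233 RPM in these groups. Both lists were thus higher in E10 AoD, where Cdh7 was lowest, and their part in the Cdh7 level was not tested.

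Cdh19, a cadherin of Schwann cell precursors, was instead highest in E10 AoD, at 8.45, 7.98 and 8.5 RPM, with E10 UGR at 4, 3.17 and 2.65 RPM. E10 AoV had 1.61, 1.92 and 1.07 RPM, E9 AoD had 1.16, 1.42 and 1.03 RPM, and E9 AoV had 0.638, 0.557 and 0.713 RPM. The largest rise of the members in AoD was that of Cdh19, by 2.70 ± 0.19 on the log2 scale (adjusted p = 3.05e-08), and it was lower in E10 AoV than in E10 AoD by -2.40 ± 0.19. The rise in AoV, 1.12, was 0.95 without E10 AoV replicate 2, and the difference between E10 AoV and E10 UGR, -1.06, was -0.84 without E10 AoV replicate 3 and -0.91 without E10 UGR replicate 1. The 10 neural crest and sympathoadrenal markers summed to 388 to 443 RPM in E10 AoD, 111 to 123 RPM in E10 UGR and at most 107 RPM elsewhere, and their part in the Cdh19 level was not tested. Cdh20 was at 0.86, 0.806 and 1.24 RPM in E9 AoD, above all other libraries, and fell by 1.22 ± 0.36 in AoD (adjusted p = 0.00898), or by 0.89 without E10 AoD replicate 3.

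Cdh11, known as osteoblast cadherin and widespread in mesenchyme, rose with stage in both parts. E10 AoD had 384, 385 and 368 RPM and E10 AoV had 283, 292 and 273 RPM, against E9 AoD at 126, 158 and 149 RPM, E9 AoV at 123, 155 and 151 RPM, and E10 UGR at 129, 123 and 108 RPM. The E10 aortic groups did not overlap each other or the rest. Its log2 fold change between stages was 1.40 ± 0.09 in AoD (adjusted p = 1.49e-08), whereas the 0.99 ± 0.09 in AoV (adjusted p = 6.75e-07) fell short of the fold threshold. Against E10 UGR it was 1.66 for E10 AoD and 1.24 for E10 AoV. The 8 sclerotome and mesenchyme markers had sums of 2867 to 3067 RPM in E10 AoD, 2396 to 2549 RPM in E9 AoV and 1776 to 1850 RPM in E10 AoV. In E9 AoD and E10 UGR they summed to 882 to 1169 RPM. Unlike Cdh11, their sum was thus higher in E9 AoV than in E10 AoV, but none of the 8 was called between these groups. By adjusted p alone, 2 of the 8 were higher and 4 lower in E10 AoV. The part of these markers in the Cdh11 level was not tested.

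Cdh22, a cadherin of the nervous system, was at 0.228, 0.325 and 0.333 RPM in E9 AoV and 0.762, 0.779 and 1 RPM in E9 AoD, and its log2 fold change between them was -1.26 ± 0.21 (adjusted p = 0.000191). Cdh24 was at 58.4, 53.6 and 61.5 RPM in E10 AoV, above the 36.7 to 47 RPM of the other libraries, but its largest change between stages, 0.44 in AoV (95% interval 0.25 to 0.64), stayed under the fold threshold.

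Outside the classical types, Cdh13, which encodes T-cadherin, a membrane-anchored form without a cytoplasmic tail, was at 7.48, 7.3 and 7.39 RPM in E10 AoD, with E10 AoV next at 2.33, 2.58 and 2.7 RPM. E9 AoD had 1.72, 2.12 and 1.56 RPM, E9 AoV had 0.957, 1.3 and 1.26 RPM, and E10 UGR had 1.3, 1.48 and 1.18 RPM. The 2 E10 aortic groups lay above the rest. In AoD it rose between stages by 1.99 ± 0.14 on the log2 scale (adjusted p = 2.42e-08), and the log2 fold change was 2.40 ± 0.14 for E10 AoD against E10 UGR, and -1.51 ± 0.14 for E10 AoV against E10 AoD. The rise in AoV, 1.06, was 0.93 without E9 AoV replicate 1.

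Cdh23, a cadherin of the tip links of hair cells, had 2.33, 2.51 and 2.05 RPM in E10 AoV, and E10 UGR had 2.67, 2.84 and 2.14 RPM, but E10 AoD had 0.384, 0.401 and 0.402 RPM, and between 0.441 and 0.994 RPM in the E9 groups. Its log2 fold change was 1.91 ± 0.18 between stages in AoV and 2.27 ± 0.18 for E10 AoV against E10 AoD, with an interaction of 2.72 (adjusted p = 2.45e-06). Cdh26 was at 3.04, 3.63 and 3.61 RPM in E10 AoV, above all other libraries, 2.56, 2.38 and 2.6 RPM in E10 AoD and at most 1.12 RPM at E9.5, and rose by 1.65 in AoV and 1.68 in AoD on the log2 scale. Cdh29, whose identifier belongs to the gene now named Cdhr4, rose by 1.17 in AoV, or 0.96 without E9 AoV replicate 3, and by 1.46 in AoD.

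Adherens junction partners, 18 catenins, nectins and linkers, are given beside the cadherins. Their sum was 2798 to 3535 RPM over the 15 libraries, and beta-catenin (Ctnnb1) lay between 1310 and 1600 RPM. The catenins Ctnna1, Ctnnb1 and Ctnnd1 were called in none of the 6 comparisons. From E9 AoV to E10 AoV Ctnna2, the neural alpha-catenin, rose by 1.15 and Pvrl4, a nectin, fell by 1.74 on the log2 scale, and from E9 AoD to E10 AoD Ctnna2 rose by 1.12. Between E9 AoV and E9 AoD 3 were higher in E9 AoV, led by Pvrl4 (1.83) and Ctnna3 (1.56), and between E10 AoV and E10 AoD 2, Ctnna3 (1.30) and Jup (1.26), which encodes plakoglobin. In E10 AoD Ctnna2 (1.50) and Vcl (1.13), which encodes vinculin, were higher and Pvrl4 (-1.29) lower than in E10 UGR.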

How the data were processed

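RNA was measured by RNA-seq in 15 libraries of 5 tissue groups. The authors aligned 50-base single-end reads to NCBIM37/mm9 with TopHat and Bowtie 0.12.3, counted them over Ensembl genes with GeneProf, dividing ambiguous reads among genes, and scaled them; the deposited values are RPM (reads-per-million), not adjusted for gene length. The table also holds 12 columns of the authors' own comparisons (log2 fold changes and adjusted p-values), which were not used. Of values under 20 reads, 55.5% to 58.0% per library were whole multiples of the RPM of a single read, within the rounding of the deposited digits. Reads per gene were therefore not recovered and no count test was run; numbers of reads given are RPM divided by that step, and are approximate.

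Genes at 0.5 RPM or more in at least 1 library were tested (18553) with limma 3.58.1 in R 4.3.3, with a trend in the prior, on log2(RPM + 0.1), which understates the change of low genes. All 5 groups entered 1 model, without replicate as a term, and p-values were adjusted by Benjamini-Hochberg within each comparison. Called means adjusted p under 0.05 and a log2 fold change of at least 1 in size. The interaction is the stage change in AoV minus that in AoD. The test was checked on simulated data. Lengths and positions came from GENCODE M1 (NCBIM37), and RefSeq start sites (GRCm38.p6) were matched for 29 members. Members named had values per library given for up to the 5 largest called changes in each direction of a comparison and where all 3 libraries of a group lay above the other 12; other genes were named by the 2 largest called changes in each direction of their list, of which 1 is not reported here. Same-numbered libraries did not deviate together throughout (correlations -0.138 to 0.452 over 30 pairs), so the numbers were not taken to pair them. Still, 11 of these 30 pairs were above 0.1 (median 0.064), against 7 of 60 pairs with different numbers (median -0.034). The members and lists were chosen with earlier results of these data known. Alternatives were another pseudocount, other filters, quantile normalization, median-ratio scaling, a replicate block, only the compared groups, no fold threshold and leaving out each library.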

Additional observations from a re-analysis of the deposited data

Results flagged for a closer look

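For 12 of 36 tested members the change between stages differed between AoV and AoD by limma's interaction test (adjusted p under 0.05 and a log2 difference of at least 1 in size), against 11% of all tested genes. The difference is the log2 stage change of AoV minus that of AoD. It was above 0 for 7 members: 3.38 for Cdh7, 2.76 for Cdh9, 2.72 for Cdh23, 2.63 for Cdh18, 1.92 for Cdh10, 1.75 for Cldn15 and 1.39 for Cldn19. It was below 0 for 5: -3.07 for Cldn2, -1.85 for Cldn23, -1.66 for Cldn3, -1.58 for Cdh19 and -1.43 for Cldn10a. With a pseudocount of 1 RPM, 8 of the 12 kept their call, and Cldn15 (0.93), Cldn19 (0.35), Cldn23 (-0.52) and Cldn10a (-0.61) fell under the fold threshold. Cdh7 was called in opposite directions on log2(RPM + 0.1), higher at E10.5 in AoV and lower in AoD, where its E10.5 level was a few reads. By contrast, Cdh10 and Cdh18 rose and Cldn3 fell in both parts. Cldn2 was called lower in AoV alone of the 2 parts. Among list genes the interaction was called for 4 of 24 tight junction partners, with Ocln at -2.07, Marveld3 at -1.65 and Jam2 at 1.36, for Pvrl4 (-1.43) of 18 adherens junction partners, for 5 of 18 epithelial regulators and markers, led by Krt8 (-2.61), and for Zeb2 (1.28) and Twist2 (-2.22) of 7 repressor factors.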

How the results depend on the processing

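None of the called member values changed direction in an alternative fit that held it, and members not called were not checked for this. The counts of called members stayed within 1.5 times except as follows. With a pseudocount of 1 RPM, 11 members were called between E10 AoD and E9 AoD instead of 17. With no fold threshold, 28 were called there, 21 between E9 AoV and E9 AoD, 27 between E10 AoV and E10 UGR and 20 for the interaction. Of 116 called member values, 33 lost their call with a pseudocount of 1 RPM, which shrinks the fold of genes at low RPM, and 17 fits in which 1 library was left out lost a call, over 11 member values given above with the library. Leaving out a library gave 21 to 24 called members for E10 AoV against E9 AoV and 15 to 18 for E10 AoV against E10 UGR. With a replicate block the counts were the same, 21 for E10 AoV against E9 AoV, and no called member lost its call. Quantile normalization moved the median of all genes by -0.115 between E9 AoV and E9 AoD and the share of all called genes that were higher in E9 AoV from 70.6% to 59.4%. Depth limits members of a few reads, such as Cdh9 and Cldn19 in the E9 groups and Cdh7 in E10 AoD.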
